A study of Homo sapiens with 12 samples.

Results

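The syntaxins, the other SNARE genes of the VAMP and SNAP families, the syntaxin-binding proteins and the synaptotagmins were followed through 12 RNA-sequencing libraries of the neuroblastoma cell line SK-N-DZ. Members were taken by name from the table of counts: syntaxins (STX followed by a number and, for some, A or B), syntaxin-binding proteins (STXBP), vesicle-associated membrane proteins (VAMP), synaptotagmins (SYT) and SNAP23, SNAP25, SNAP29 and SNAP47. The table held 50 such genes among 43769, made up of 16 STX, 6 STXBP, 7 VAMP, 17 SYT and 4 SNAP genes. Enough reads for a test were found for 43 of the 50.

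The study asked how the loss of ARID1A, a subunit of the SWI/SNF chromatin remodeling complex, alters the response of neuroblastoma cells to interferon gamma (IFNγ). The 4 groups had 3 libraries each. Group C had neither agent, group D had doxycycline for 4 days, group I had IFNγ for 24 hours and no doxycycline, and group DI had doxycycline for 4 days with IFNγ for 24 hours. The labels call the genotype of C and I wild-type and that of D and DI shARID1A, while the methods describe clonal lines in which doxycycline switches on a short hairpin RNA against ARID1A from a Tet-pLKO-puro vector. A line of this kind is 1 clone, grown under puromycin, and no group had doxycycline without the hairpin, so the effects of the drug and of the hairpin cannot be told apart. No source says whether libraries of a group came from separate cultures, so p-values measure the spread between these libraries, which may be technical.

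Membrane fusion inside cells is driven by SNARE proteins. A vesicle carries an R-SNARE such as a VAMP, the target membrane carries a syntaxin and a SNAP protein, and the 3 kinds of protein zip into a helical bundle that pulls the membranes together. Munc18 proteins chaperone syntaxins, and tomosyn (STXBP5) binds syntaxin and SNAP25 and holds back release. Synaptotagmins are membrane proteins with C2 domains, some of which sense the calcium that triggers release from neurons and neuroendocrine cells. Neuroblastoma arises from the sympathetic nervous system, whose cells store and release catecholamines by this machinery.

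The libraries held 16469832 to 21790869 counts, of which the 50 members took 0.187% to 0.255%. Values are given as CPM, the CPM of edgeR after TMM scaling (the count set against the library total), and a count of 3, taken as the limit of detection, equals 0.138 to 0.182 CPM by library size. ARID1A itself lay between 165 and 197 CPM in C, between 158 and 197 in D, between 192 and 203 in I, and between 133 and 151 in DI. Its transcript was not called lower in D than in C (log2 fold change −0.09 ± 0.11 SE, edgeR adjusted p = 0.788) or in DI than in I (−0.44 ± 0.11, adjusted p = 0.115, with 0.0111 when the replicate number was a block and 0.0159 by DESeq2). The libraries labelled with doxycycline are therefore named by their labels. For its SK-N-DZ hairpin line, the paper reports less ARID1A transcript by RT-qPCR and less ARID1A protein by Western blot. IRF1, a textbook target of IFNγ, rose from a group mean of 2.14 CPM in C to 411 in I. All 9 adrenergic neuroblastoma markers looked for, such as HAND2 and DBH, were present, with a summed level of 3051 to 4313 CPM. TH among them was uneven, from 0.695 CPM in D replicate 3 to 74.7 in C replicate 3, with group means of 41.7 (C), 3.02 (D), 27.5 (I) and 1.91 (DI). The summed level of 5 immune markers stayed at or under 1.496 CPM, and that of 3 endothelial markers at or under 2.95 CPM. The sum of 4 epithelial markers reached 2.95 CPM at most. The sum of 5 fibroblast or mesenchymal markers ran from 12.3 to 65.9 CPM. Of these, PDGFRA had 8.91 to 43.4 CPM and COL1A2 2.31 to 23.9, while COL1A1, DCN and LUM stayed at or under 5.02 CPM. In bulk libraries such as these, a change in the share of cells that express a gene and a change in its RNA per cell cannot be told apart.

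The 2 members with the largest response to IFNγ, VAMP5 and STXBP5, are shown here by the 250 bases before their RefSeq gene starts (GRCh38.p14, plus strand), beside VAMP8, the neighbor of VAMP5 on chromosome 2. VAMP8 ends 2377 bases before VAMP5 begins in GENCODE release 29. Windows span chr2:85584181-85584430 for VAMP5, chr6:147204167-147204416 for STXBP5 and chr2:85577336-85577585 for VAMP8, the last of these inside the GENCODE gene of VAMP8, which begins farther upstream. The last 23 bases of the VAMP5 window lie within the gene as GENCODE draws it. Capitals mark a match to the GAS motif TTCNNNGAA, the gamma interferon activation site.
VAMP5: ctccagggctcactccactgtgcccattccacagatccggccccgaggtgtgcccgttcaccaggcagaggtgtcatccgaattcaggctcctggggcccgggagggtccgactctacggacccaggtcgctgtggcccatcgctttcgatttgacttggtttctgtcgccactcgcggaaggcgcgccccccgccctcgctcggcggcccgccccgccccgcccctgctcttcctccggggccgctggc
STXBP5: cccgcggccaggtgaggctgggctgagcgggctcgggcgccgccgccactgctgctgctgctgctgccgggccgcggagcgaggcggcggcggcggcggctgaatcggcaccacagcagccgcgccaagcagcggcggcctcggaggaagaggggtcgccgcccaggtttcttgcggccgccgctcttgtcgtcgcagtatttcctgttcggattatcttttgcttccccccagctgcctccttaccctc
VAMP8: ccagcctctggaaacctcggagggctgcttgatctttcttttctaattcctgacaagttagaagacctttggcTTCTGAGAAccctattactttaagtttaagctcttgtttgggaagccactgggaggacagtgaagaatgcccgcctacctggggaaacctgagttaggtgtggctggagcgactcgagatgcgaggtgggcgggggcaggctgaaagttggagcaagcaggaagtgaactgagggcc
Both strands were searched for GAS and for the interferon-stimulated response element core GAAANNGAA, and neither motif is present in the windows of VAMP5 and STXBP5, which are 70.0% and 71.6% G and C. The window of VAMP8 holds 1 GAS match that begins 177 bases before the gene start. Over all 35116 RefSeq windows of this length, 6.57% hold GAS and 6.88% the response element core. Members had 61 windows for 40 genes, and of these windows 5 hold GAS and 2 the response element core. A GAS match lies before STX2, STX7, STX19, VAMP4 and VAMP8. STX10 and SYT14 hold the response element core. These are descriptions of letters in short windows and say nothing of binding. STX17, the third member called higher with IFNγ, has no entry in the table of windows.

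The members differed widely in level. Per kb of exon, the scale on which genes of unequal length can be set side by side, SYT11 led with a mean of 100.4 CPM per kb over the 12 libraries. It was the highest member in each of the 4 groups. SYT1 had a mean of 32.9 CPM per kb over the 12 libraries, VAMP2 28.7 and SYT4 26.7. VAMP5 had 0.304 CPM per kb in C and 0 in D, but 69.4 in I, where it was second to SYT11, and 29.3 in DI. SYT11 is a synaptotagmin of endosomes and vesicles, SYT1 is the calcium sensor of fast synaptic release, and VAMP2 (synaptobrevin) is the R-SNARE of synaptic vesicles. Among syntaxins the means of STX5, STX10, STX2 and STX16 lay close together, at 22.8, 22.4, 22.3 and 22.2 CPM per kb, and their order changed between groups. STX10 was highest in C (26.2) and D (21.3), STX5 in I (26.6) and STX16 in DI (22.8). The neuronal SNAP25 was the highest of the 4 SNAP genes, with 14.0 CPM per kb. Exon lengths join all annotated transcripts, which lowers the value of genes with long unused ends.

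**Figure D1:**
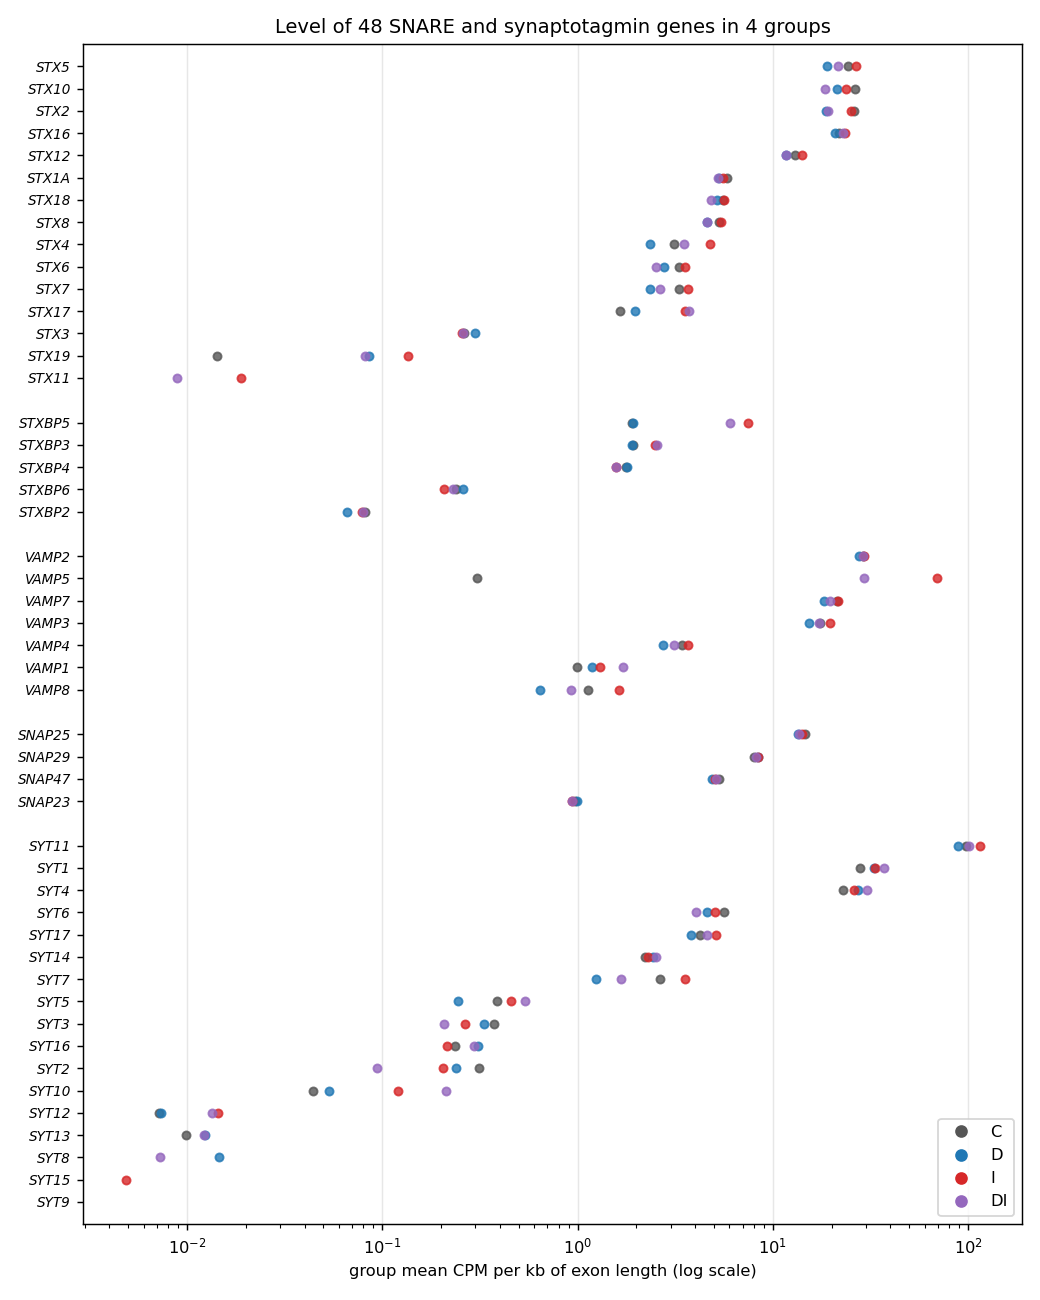
Group mean level of 48 members in CPM per kb of exon length (log scale), ordered by level within each family, with 1 point for each of the 4 groups. SYT11 lies highest at 88.6 to 115 CPM per kb, the points of VAMP5 are far apart (0.304 in C, 69.4 in I, with 29.3 in DI), and a group at 0 has no point, as for VAMP5 in D and SYT9 in all groups.

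SYT11, VAMP2 and SNAP25 were not called in any of the 5 comparisons. SYT11 stood at 464, 576 and 494 CPM in the C libraries and 394, 539 and 459.8 in D. With IFNγ it stood at 520.3, 675 and 609 CPM (I) and at 410.1, 688 and 483 (DI). The 4 groups overlapped, and replicate 2 was the highest library in each of them. VAMP2 had 93.4, 100.3 and 89.8 CPM in C, 72.1, 102 and 96.3 in D, then 87.1, 109 and 90.5 in I, with 78.2, 121 and 84.6 in DI. SNAP25 had 46.7, 46.5 and 54.2 CPM in C, 40.3, 47.7 and 46.9 in D, then 42.0, 51.8 and 49.0 in I, with 41.5, 52.1 and 44.3 in DI. Their groups overlapped too, and the log2 fold changes of VAMP2 and SNAP25 lay within 0.13 of 0. SYT9 had no count in any library, which allows up to 3 counts, or 0.138 to 0.182 CPM, in each. Another 6 members were left out of the test for low counts, with at most 2 counts in a library for STX11 and SYT15, 3 for SYT13, 4 for STX19 and SYT8 and 5 for SYT12. SYT15 has a near-identical copy, SYT15B, so its reads may be shared.

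The first question was which members responded to IFNγ without doxycycline. VAMP5, STXBP5 and STX17 were higher in I than in C, and all 3 were also higher in DI than in D. VAMP5 was at or near 0 without IFNγ and became one of the highest members per kb with it. In I vs C the fitted rise was 3.93-fold for STXBP5 and 2.16-fold for STX17. These were the called members in each comparison, 3 of 43 (6.98%) against 2.21% of the 15828 tested genes in I vs C (2.1% higher) and 1.72% in DI vs D (1.67% higher), with a call at a Benjamini-Hochberg adjusted p under 0.05 in the edgeR quasi-likelihood test over all tested genes. No member was called lower, against 0.114% of tested genes in I vs C and 0.0505% in DI vs D.

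VAMP5 (ENSG00000168899, chr2:85584408-85593412, plus strand) encodes an R-SNARE first described in muscle. In C it had 0, 0.248 and 0.499 CPM, which are 0, 5 and 8 counts, and in D it had 0 counts in all 3 libraries. In I it had 51.7, 62.3 and 56.5 CPM (1044, 1143 and 1078 counts), and in DI 29.2, 26.8 and 15.99 CPM (569, 522 and 355 counts). The IFNγ libraries were far above those without IFNγ, and the 3 DI libraries all lay under the 3 I libraries. The mean of I was 228-fold that of C (log2 fold change 7.80 ± 0.58 SE, edgeR adjusted p = 6.6e-05). This size rests on the 0, 5 and 8 counts in C, and the fitted log2 fold change was 7.25 without C replicate 1 and 8.65 without C replicate 3, with the call kept in both. Set against a floor of 3 counts in each D library, the mean of DI was at least 152-fold higher than that of D (edgeR adjusted p = 7.7e-05). VAMP8, an R-SNARE of endosomes with its gene next to VAMP5, had group means of 1.13 ± 0.85 CPM in C and 1.62 ± 0.91 in I (SD, n = 3) and was not called (log2 fold change 0.51 ± 1.06, adjusted p = 1.000).

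STXBP5 (ENSG00000164506, chr6:147204425-147390476, plus strand), tomosyn, is an inhibitor of release. It had 20.4, 23.0 and 16.3 CPM in C and 24.5, 20.2 and 15.6 in D, against 83.0, 86.8 and 65.0 in I, with 73.3, 63.7 and 53.1 in DI. Every library with IFNγ was above every library without it, and replicate 3 was the lowest library of each group. The log2 fold change was 1.97 ± 0.20 in I vs C (adjusted p = 1.7e-04) and 1.66 ± 0.20 in DI vs D (adjusted p = 7.3e-04). The second call was lost when replicate 1 was left out of all 4 groups (log2 fold change 1.71, adjusted p = 0.0666). An antisense gene, STXBP5-AS1, overlaps STXBP5 at a mean of 1.21 CPM, and no source says whether counting used the strand.

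STX17 (ENSG00000136874, chr9:99906633-99970341, plus strand) encodes a syntaxin of the endoplasmic reticulum and of autophagosomes, where it takes part in fusion with lysosomes. It had 8.54, 7.40 and 7.60 CPM in C, 7.15, 9.47 and 11.4 in D, then 16.4, 17.5 and 16.8 in I, with 16.7, 16.6 and 19.5 in DI. The groups with IFNγ did not overlap those without it. The log2 fold change was 1.11 ± 0.17 in I vs C (adjusted p = 0.0040) and 0.92 ± 0.17 in DI vs D (adjusted p = 0.0169). The second call was lost when D replicate 1 (adjusted p = 0.0521), D replicate 2 (0.0608) or DI replicate 3 (0.0810) was left out, with log2 fold changes of 0.76 to 0.93, and when the libraries of D and DI alone were fitted (0.199). Both calls were lost when any 1 replicate number was left out of all 4 groups, with adjusted p-values of 0.0638 to 0.178 in I vs C and 0.0957 to 0.374 in DI vs D, while the log2 fold changes were 1.04 to 1.19 and 0.79 to 1.02.

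**Figure D2:**
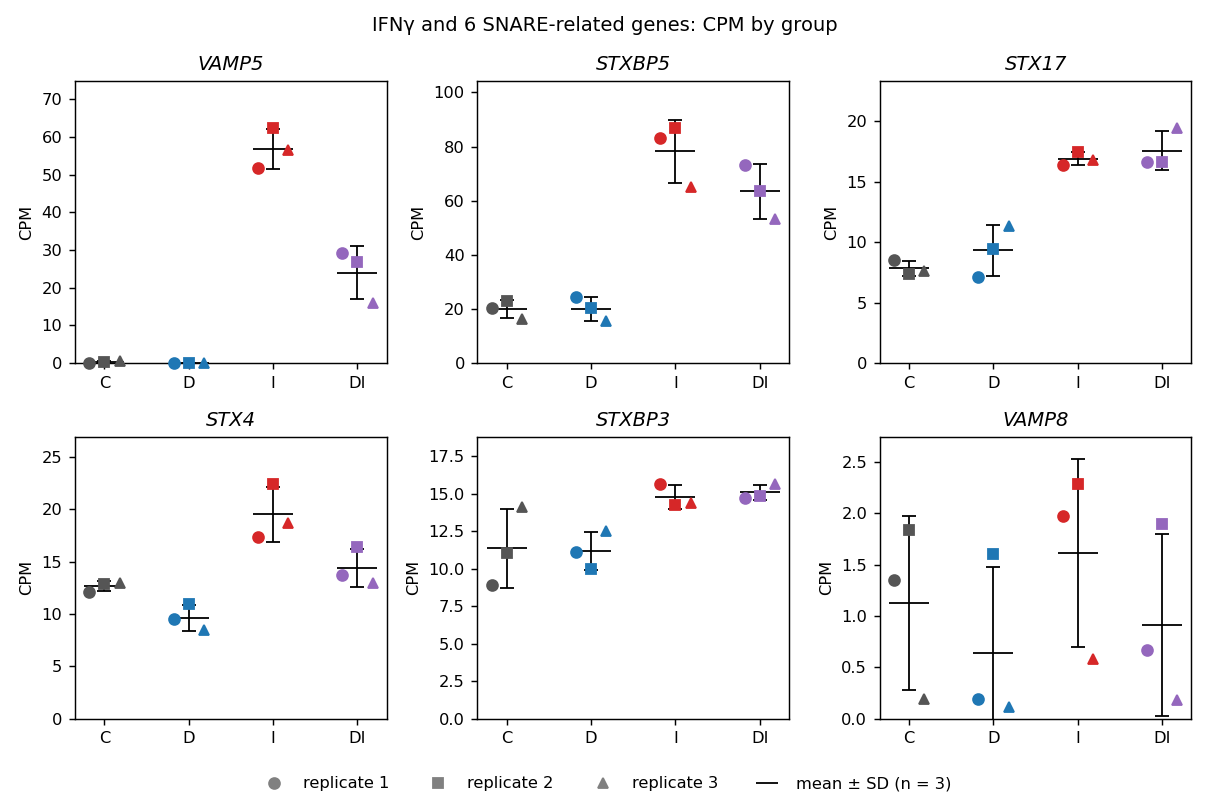
CPM of VAMP5, STXBP5, STX17, STX4, STXBP3 and VAMP8 in each of the 12 libraries (points, shaped by replicate number) with the group mean ± SD (n = 3). VAMP5 lies at 15.99 to 62.3 CPM in I and DI and at or under 0.499 CPM in C and D, and replicate 3 of STXBP5 is the lowest library in every group.

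Libraries that share a replicate number moved together, as described in the processing section, and a fit with that number as a block called more members in both IFNγ comparisons, STX4 among them. STX4, a syntaxin of the plasma membrane in most cell types, had 12.1, 12.9 and 13.0 CPM in C, 9.53, 10.9 and 8.46 in D, then 17.4, 22.5 and 18.7 in I, with 13.8, 16.4 and 12.9 in DI. Its IFNγ groups lay wholly above their controls, with blocked log2 fold changes of 0.62 ± 0.11 (adjusted p = 0.00745, and 0.0768 without the block) in I vs C and 0.57 ± 0.12 (0.0154, and 0.148 without the block) in DI vs D. With the block, 5 of 43 members (11.6%) were called in I vs C, all higher, against 6.02% of tested genes (4.88% higher). In DI vs D 6 (14.0%) were called against 4.46%, with 5 higher (3.77% of tested genes) and 1 lower (0.695%). The lower one was the low-level synaptotagmin SYT2, at 1.85 ± 1.25 CPM in D and 0.729 ± 0.79 in DI, with a blocked log2 fold change of −1.59 ± 0.36 (adjusted p = 0.0296, and 1.000 without the block). Its log2 fold change without the block, −1.32, was −0.72 without D replicate 3, −0.82 without DI replicate 2 and −2.68 without DI replicate 3. SYT2 overlaps PPP1R12B on the other strand, which had a mean of 29.9 CPM.

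Counted by libraries alone, 7 members had all 3 I libraries above all 3 C libraries (16.3% of the 43, against 8.84% of tested genes), and 7 had all 3 DI libraries above all 3 D libraries (against 5.77%). VAMP5, STXBP5, STX17, STX4, STXBP3 and VAMP1 were in both counts, SYT17 in the first and VAMP4 in the second. No member lay wholly lower in either comparison, against 6.24% and 3.78% of tested genes. STXBP3, a Munc18 protein of non-neuronal secretion, had a mean of 11.4 ± 2.63 CPM in C and 14.8 ± 0.80 in I (log2 fold change 0.38 ± 0.17, adjusted p = 0.631). VAMP1 had 3.56 ± 0.60 CPM in C and 4.68 ± 0.61 in I (adjusted p = 0.920). VAMP1 overlaps TAPBPL, an antigen presentation gene on the other strand whose mean went from 2.27 CPM in C to 22.7 in I, and the part of its reads in the counts of VAMP1 was not tested. The median log2 fold change of the 43 members was 0.10 in I vs C and 0.13 in DI vs D, beside −0.01 and −0.01 for all tested genes.

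The second question was what doxycycline changed in the members, with and without IFNγ. Of the 14 tested syntaxins, 11 had lower fitted levels with doxycycline in each arm, among them syntaxins of the endosomes, Golgi and plasma membrane. The fall reached 29.1% for STX7 in D vs C and for STX6 in DI vs I, but no member was called by the edgeR test without the block. STX3, with means of 1.72 CPM in C and 1.97 in D, and STX17 were among the 3 that were not lower. In D vs C, 0 of 43 members passed against 1.23% of tested genes, and 7 had an unadjusted p under 0.05 (14.2% of tested genes did). In DI vs I, 0 of 43 passed against 0.67% of tested genes, and again 7 had an unadjusted p under 0.05 (12.2% of tested genes did). DESeq2 called 3 members lower in each, STX2, STX7 and VAMP5 in D vs C (2.42% of tested genes were called lower) and STX6, STX7 and VAMP5 in DI vs I (2.0%). The call of VAMP5 in D vs C rests on the 5 and 8 counts of 2 C libraries.

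With the replicate block, the fit called 6 members in D vs C, among them STX2, STX4, STX5, STX7 and STX10, and 9 in DI vs I, which were STX2, STX4, STX5, STX6, STX7, STX10, STX12, SYT2 and VAMP5. All were lower with doxycycline. The 6 are 14.0% of the members, and the background is 13.9% of tested genes in either direction and 7.67% in the lower one. The 9 are 20.9%, against 10.5% in either direction and 6.62% in the lower one. These 2 comparisons share no libraries but share replicate numbers. SYT2 had a blocked log2 fold change of −1.27 ± 0.36 in DI vs I (adjusted p = 0.0485, and 0.765 without the block), and its unblocked value of −1.12 became −0.37 without I replicate 3, −0.61 without DI replicate 2 and −2.48 without DI replicate 3. Of the 9 adrenergic markers, the block also called DBH and HAND2 lower in D vs C, with HAND2 alone in DI vs I. None of the 9 was called by edgeR without it. Fitted log2 fold changes were below 0 for 7 of the 9 in each comparison. HAND1 and GATA3 were the exceptions, higher with doxycycline in both arms, and neither was called. The mean of HAND1 went from 318 to 395 CPM without IFNγ and from 239 to 303 CPM with it. That of GATA3 went from 589 to 712 CPM without IFNγ and from 580 to 678 CPM with it. PHOX2A was higher with IFNγ, with group means of 862 CPM in C, 1137 in I, 859 in D and 1101 in DI. Its adjusted p-values by edgeR without the block were 0.0517 in I vs C and 0.113 in DI vs D. They were 0.0115 and 0.0274 with the block, and 0.00366 and 0.0165 by DESeq2. Fitted log2 fold changes with IFNγ were below 0 for 6 of the 9 markers in I vs C and in DI vs D. The part of these marker changes in the values of the members was not tested.

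STX7, which serves fusion of late endosomes and lysosomes, had 54.5, 47.7 and 59.9 CPM in C and 34.5, 42.3 and 38.2 in D. It had 57.1, 55.7 and 68.1 CPM in I and 41.9, 43.2 and 44.5 in DI. No doxycycline library reached its control group. The log2 fold change was −0.50 ± 0.12 for D vs C (adjusted p = 0.0864, and 0.0116 with the block) and −0.48 ± 0.12 for DI vs I (0.125, and 0.0155 with the block). STX2, a plasma membrane syntaxin, had 93.8, 89.4 and 109 CPM in C and 75.3, 60.8 and 72.2 in D. With IFNγ it had 94.8, 84.2 and 103 CPM in I and 77.6, 59.0 and 77.4 in DI. The groups did not overlap in either arm, and the log2 fold changes were −0.49 ± 0.14 (adjusted p = 0.135, and 0.0030 with the block) and −0.40 ± 0.14 (0.268, and 0.00968 with the block).

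STX6 and STX10 are related syntaxins of the trans-Golgi network and endosomes. STX6 had 23.3, 19.6 and 21.5 CPM in C and 20.3, 16.9 and 17.03 in D, which overlap. It had 24.7, 23.3 and 21.2 CPM in I, above 15.3, 16.2 and 17.6 in DI. Its log2 fold change in DI vs I was −0.50 ± 0.13 (adjusted p = 0.128, and 0.0211 with the block). STX10 had 41.0, 43.9 and 56.4 CPM in C, 33.5, 38.2 and 43.1 in D, then 35.4, 38.5 and 53.5 in I, with 31.4, 31.2 and 36.7 in DI. Its groups overlapped in both arms, while in each replicate number the doxycycline library was the lower one, with blocked adjusted p-values of 0.0495 and 0.0344. STX12, of recycling endosomes, went from 50.7, 59.2 and 52.1 CPM in I to 42.2, 46.8 and 45.8 in DI (log2 fold change −0.26 ± 0.11, adjusted p = 0.381, and 0.0422 with the block).

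STX5, a syntaxin of the Golgi, had 50.5, 60.8 and 52.3 CPM in C, 34.9, 46.6 and 47.0 in D, then 53.6, 61.9 and 64.8 in I, with 40.9, 55.7 and 48.8 in DI. D lay wholly under C, and DI overlapped I by 1 library. The blocked adjusted p-values were 0.0227 for D vs C and 0.0422 for DI vs I, and 0.339 and 0.461 without the block. STX4 was lower with doxycycline by a log2 fold change of −0.39 ± 0.16 for D vs C (adjusted p = 0.283, and 0.0455 with the block) and −0.44 ± 0.15 in DI vs I (0.268, and 0.0332 with the block), from the libraries listed above.

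**Figure D3:**
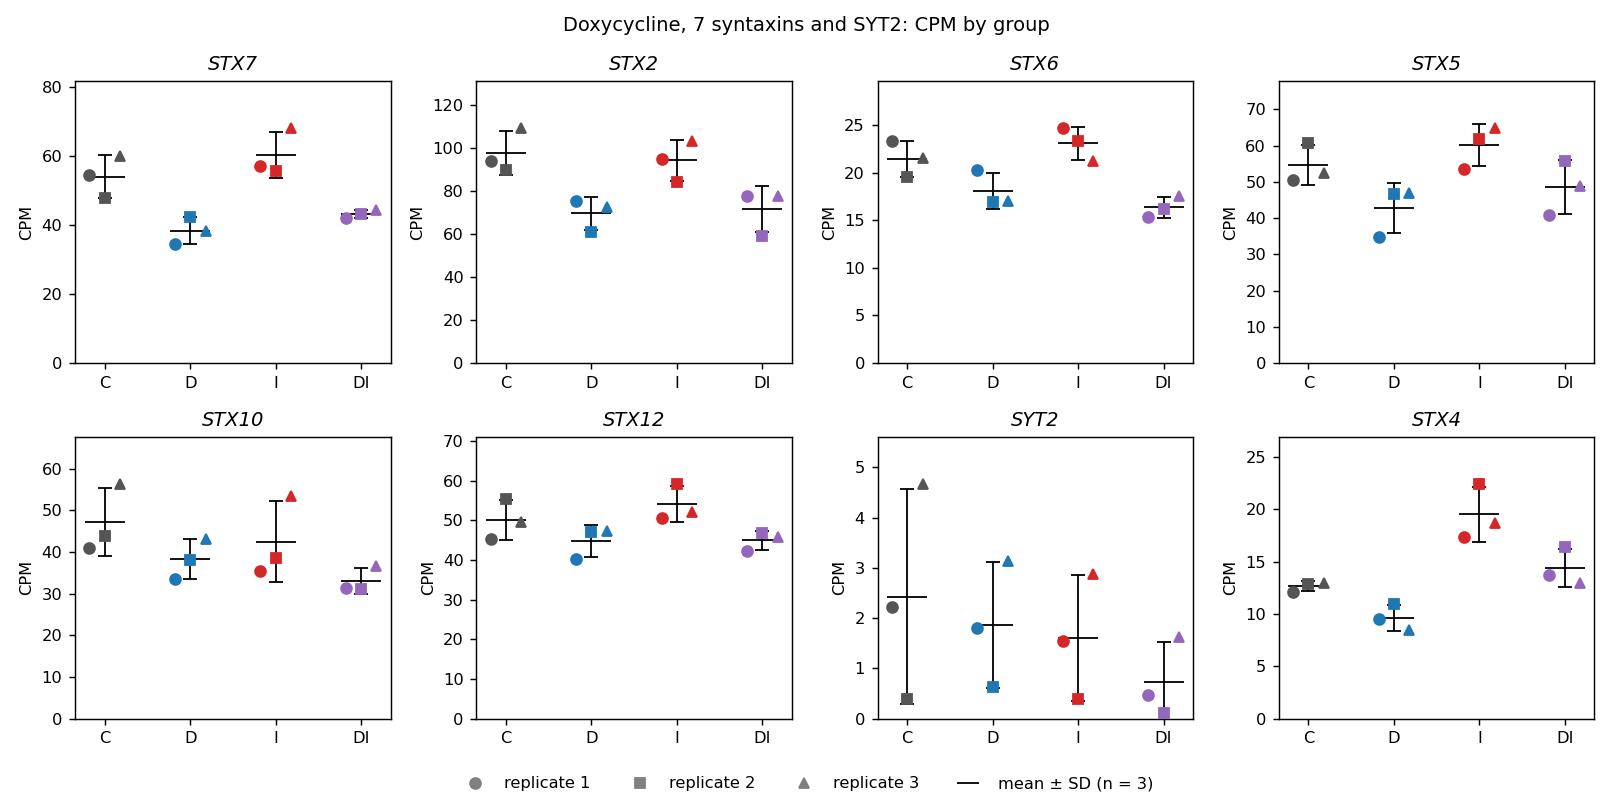
CPM of STX7, STX2, STX6, STX5, STX10, STX12, SYT2 and STX4 in the 12 libraries (points, shaped by replicate number) with the group mean ± SD (n = 3). The D and DI points of STX7 and STX2 all lie under the C and I points of the same gene, at 34.5 to 44.5 CPM and 59.0 to 77.6 CPM.

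Over the 14 tested syntaxins the median log2 fold change was −0.18 for D vs C and −0.25 for DI vs I, with 11 of the 14 below 0 in each, and over all 43 members it was −0.15 and −0.14. All tested genes had medians of 0.00 and −0.01, with 50.1% and 51.1% of them below 0. Scaled by library size alone, the medians of the members were −0.05 in both comparisons and those of all tested genes were 0.09. By that scaling 10 of the 14 syntaxins were below 0 for D vs C and 9 for DI vs I, beside 39.3% and 38.8% of all tested genes. With TMM scaling, the VAMP family had 6 of 7 members below 0 in each comparison, VAMP1 being the exception, and the SNAP family 2 of 4. Synaptotagmins were mixed, with 7 of 12 below 0 for D vs C and 6 of 12 for DI vs I. Members whose libraries did not overlap on the lower side numbered 7 for D vs C (16.3%, against 9.1% of tested genes) and 9 for DI vs I (20.9%, against 8.41%). On the higher side there were 0 and 1 (VAMP1), against 10.1% and 8.17%.

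**Figure D4:**
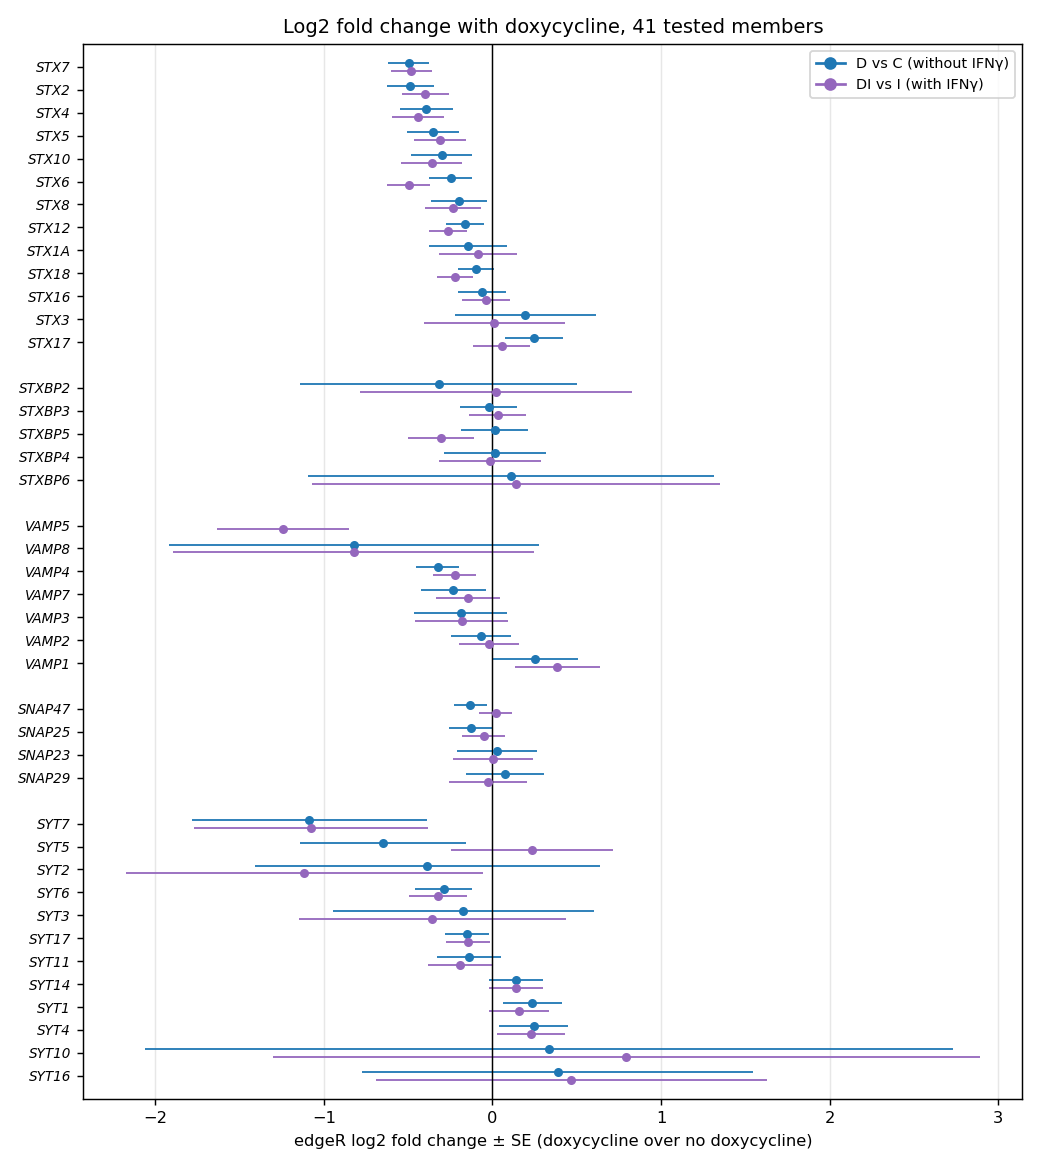
The edgeR log2 fold change ± SE of 41 tested members in D vs C and DI vs I, by family. STX7 at −0.50 and −0.48 and STX2 at −0.49 and −0.40 lie at the low end of the syntaxins in D vs C, members with wide bars such as SYT10 have few counts, and VAMP5 in D vs C is not drawn because D is at 0.

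Of the 3 members called with IFNγ, VAMP5 had the largest fold difference between DI and I. The mean in DI was 24.0 ± 7.03 CPM against 56.8 ± 5.35 in I (SD, n = 3), a ratio of 0.422, and all 3 DI libraries were lower than all 3 I libraries. The log2 fold change of −1.24 ± 0.39 had an edgeR adjusted p of 0.239 without the block, 0.0264 with it and 0.00136 by DESeq2. STXBP5 had 63.4 ± 10.1 CPM in DI and 78.3 ± 11.7 in I (log2 fold change −0.30 ± 0.19, adjusted p = 0.607, and 0.0624 with the block), and STX17 17.6 ± 1.62 and 16.9 ± 0.55 (0.06 ± 0.17, adjusted p = 0.949, and −0.03 without DI replicate 3). Whether the IFNγ response differed with doxycycline was tested by the interaction, (DI vs D) minus (I vs C). No member was called, with or without the block, as was the case for all tested genes (0.0% called). By edgeR without the block 1 member, VAMP5, had an unadjusted p under 0.05 (0.625% of tested genes did), and with the block 2, STXBP5 and SYT2 (2.36%). DESeq2 called 0 members in the interaction (0.00377% of tested genes), and 1, VAMP5, had an unadjusted p under 0.05. For STXBP5 the interaction was −0.32 ± 0.28 and for STX17 −0.19 ± 0.24 on the log2 scale. For VAMP5 the D libraries are at 0, so its fitted interaction depends on the prior count and is not given. Its sign by edgeR was positive but rests on the same zeros. The unadjusted p therefore shows neither a weaker nor a stronger IFNγ response of VAMP5 with doxycycline.

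For most members, as for most tested genes, the replicate number went with a larger part of the spread over the 12 libraries than either agent. On log2(CPM + 0.5), the replicate number was the largest of the 3 sources for 26 of the 43 tested members (60.5%), beside 60.0% of all tested genes. Doxycycline was the largest for 10 (23.3%, beside 26.3% of all tested genes) and IFNγ for 7 (16.3%, beside 13.7%). The number has 3 levels and each agent 2, so it can take up more of the spread, and these counts favor it. The median share of the replicate number was 38.6% over the members and 35.9% over all tested genes. SNAP29, a SNARE of endosomes and autophagosomes, had 39.3 to 42.4 CPM in replicate 1 of the 4 groups, 48.5 to 51.5 in replicate 2 and 30.8 to 35.4 in replicate 3, with no overlap between the numbers. STXBP6 (amisyn) had 2.00 to 3.67 CPM in replicates 1 and 2 and 0.105 to 0.463 in replicate 3. SYT16 was at 0.310 to 0.944 CPM in replicate 2, and at 3.08 to 9.95 in the other two numbers. SYT10 had 11, 17, 37 and 63 counts in replicate 1 of C, D, I and DI and none in the other 8 libraries. STXBP4 lay between 36.2 and 44.9 CPM in replicate 1 and between 20.4 and 24.6 in replicate 3. On the other strand, SNAP29 overlaps PI4KA (mean of 202 CPM) and STXBP4 overlaps COX11 (66.7 CPM). The part of the reads of PI4KA and COX11 in these counts was not tested. SYT7, a synaptotagmin of lysosomes and dense-core granules, had 28.9 CPM in C replicate 3 and 39.7 in I replicate 3, against 7.53 in D replicate 3 and 7.52 in DI replicate 3. Its 8 other libraries held 3.62 to 17.8 CPM, and it was not called in any comparison.

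**Figure D5:**
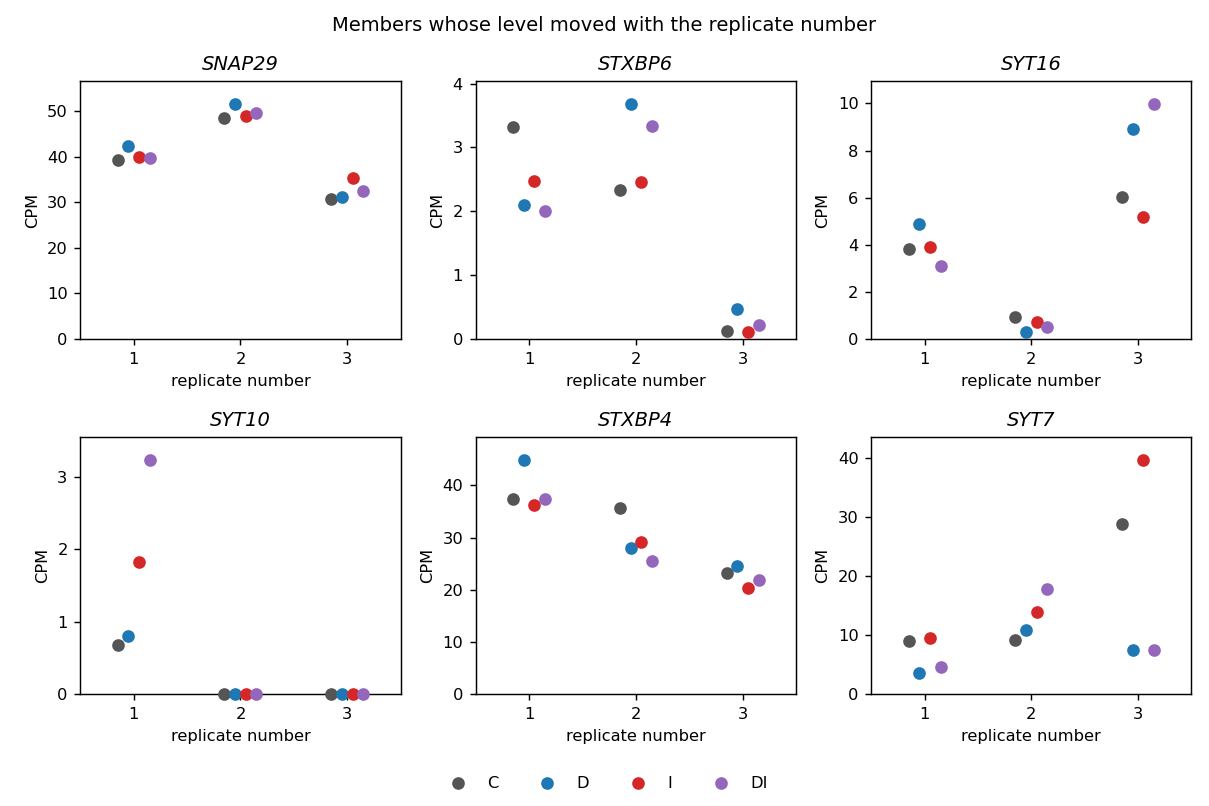
CPM of SNAP29, STXBP6, SYT16, SYT10, STXBP4 and SYT7 against the replicate number, with 1 point for each of the 4 groups. The 4 groups of SNAP29 lie together within each number, SYT10 is above 0 in replicate 1 and at 0 elsewhere, and C and I of SYT7 stand apart in replicate 3 at 28.9 and 39.7 CPM.

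Genes that work beside the members were read from 5 lists. Of 12 other SNAREs, such as GOSR1, YKT6 and VTI1A, all were tested and none was called in the 5 comparisons by edgeR without the block. Of 9 Sec1/Munc18 relatives and SNARE-recycling factors none was called either, and none of 7 tested synaptotagmin-like and extended synaptotagmins or 16 tested synaptic vesicle proteins. Among 21 tested priming and docking genes, RAB27A, a small GTPase that tethers secretory granules and lysosome-related organelles to the plasma membrane, was called higher with IFNγ. It had 6.33, 7.10 and 8.54 CPM in C, 6.15, 5.28 and 8.69 in D, then 20.1, 20.6 and 24.6 in I, with 17.3, 14.5 and 21.5 in DI. The IFNγ groups lay wholly above the others, with log2 fold changes of 1.57 ± 0.22 (adjusted p = 0.0020) and 1.41 ± 0.22 (adjusted p = 0.0052). The calls of RAB27A were lost without replicate 1 in all 4 groups (adjusted p = 0.191 and 0.345), and the second one also without replicate 2 (0.0812) and when D and DI alone were fitted (0.0698), at log2 fold changes of 1.37 to 1.53. The calls with the block stand beside 13.9% of all tested genes in D vs C (7.67% lower) and 10.5% in DI vs I (6.62% lower). With the block, doxycycline comparisons called 2 of the 12 other SNAREs (BET1 and SEC22A, lower in D vs C). The block also called NSF, the ATPase that takes SNARE bundles apart, and its adaptor NAPB lower in both. NSF had means of 47.8 ± 5.85 CPM in C and 34.7 ± 4.99 in D, then 51.0 ± 11.6 in I, with 36.1 ± 6.18 in DI (SD, n = 3). Of the priming and docking genes, 5 were lower and 1 higher with the block in each doxycycline comparison. Of the synaptotagmin-like and extended synaptotagmins, 2 were higher and 2 lower in D vs C and 2 higher and 1 lower in DI vs I. Of the synaptic vesicle proteins, 2 were lower in D vs C, with 4 lower in DI vs I, and none was higher. In the IFNγ comparisons the block added UNC13A and RIMS2 in I vs C and the granule protein SCG2 in both, all higher. Some of these genes were also called by DESeq2 without a block. Examples are NAPB, lower in DI vs I (adjusted p = 0.00694), and UNC13A, higher in I vs C (0.00569). In D vs C and DI vs I, RAB27B was called lower (0.0318 and 4.96e-04) and ESYT3 higher (0.00627 and 0.0279). DESeq2 called 4.56% of tested genes in D vs C, 2.99% in DI vs I and 2.93% in I vs C.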

How the data were processed

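The deposited table holds raw counts per gene for 12 libraries (paired-end reads of total RNA), made by the authors before deposit. The aligner, counting tool and strand setting are not given in the sources used here, and the submitters' processing notes name DESeq2. All 43769 identifiers occur in GENCODE release 29 (GRCh38), the source of positions and exon lengths, and 17165 genes have no count. The authors also deposited 3 tables of their own comparisons (fold changes and p-values), which were not used, nor were 18 per-library columns whose names the labels do not explain. Groups come from sample titles.

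Genes passing filterByExpr (minimum count 10, 15828 genes) were tested in 1 edgeR quasi-likelihood fit of the 4 groups on TMM-scaled counts (edgeR 4.0.16, limma 3.58.1, R 4.3.3), two-sided, with Benjamini-Hochberg adjustment over all tested genes. The code was tested on simulated data. Alternatives were DESeq2 1.42.0 and its size factors, library size alone, other filters, fewer libraries, a threshold of 0.01 and the replicate number as a block. The number pairs the libraries: after removal of group means, the correlation was 0.338 to 0.804 in the 18 pairs of libraries that share a number and −0.628 to 0.143 in the 36 that do not. The pairing comes from these correlations, since the labels do not say what the number marks. Shares of spread are sums of squares of log2(CPM + 0.5).

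Members and lists were chosen with earlier results of these data known. Per-library values are given for members called in at least 1 of the 5 comparisons and for the highest member per kb of each family. Members called with the replicate block or by DESeq2 alone, those that follow the replicate number, and VAMP8 were named after their values were seen. Some items are not reported here. ARID1A and IRF1 serve as checks, and up to 4 called genes of each list are named. Fold changes against groups at 0 use a floor of 3 counts per library, which covers counting error only.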

Additional observations from a re-analysis of the deposited data

How the results depend on the processing

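With each library left out in turn, 3 members stayed called in I vs C in all 12 fits, 2 to 3 in DI vs D, and 0 in D vs C, DI vs I and the interaction. The other scalings, filters and the threshold of 0.01 kept the counts of called members within 1.5 times of those reported, and of the log2 fold changes followed through the alternatives, which were those of members called by edgeR with or without the block and the other values printed for STXBP3, VAMP1, VAMP8, STXBP5, STX17, RAB27A and ARID1A, only that of STX17 in DI vs I turned in sign. It was −0.0253 to 0.0938 with 1 library left out (lowest without DI replicate 3) and −0.00887 to 0.125 with 1 replicate number left out (lowest without replicate 3), and it was not called in any of these fits. With the replicate block the counts were 5 in I vs C, 6 in DI vs D, 6 in D vs C, with 9 in DI vs I, and DESeq2 called 3 in D vs C, as well as 3 in DI vs I. Neither called a member in the interaction. Leaving out 1 replicate number from all groups, chosen after seeing the data, left 1 member (VAMP5) in DI vs D without replicate 1, where STXBP5 had a log2 fold change of 1.71 (edgeR adjusted p = 0.0666), and STX17 lost its call in both IFNγ comparisons whichever number was left out (adjusted p = 0.0638 to 0.178 in I vs C, 0.0957 to 0.374 in DI vs D), with log2 fold changes of 1.04 to 1.19 and 0.79 to 1.02. The cause was not tested, beyond the smaller number of libraries. With 0 to 8 counts per library, VAMP5 without IFNγ is at the limit of this depth, and 7 members had too few counts to be tested.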
